A study of Arabidopsis thaliana with 18 samples.

Results

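Genes of membrane traffic, tetraspanins and autophagy were followed in plants of the Arabidopsis thaliana accession Mt-0. Members were the probe sets annotated with exactly 1 gene whose symbol begins with VPS, PRA1, TET, SYP, VAMP, RAB, EXO70, ATG, SNX or VTI, with or without a leading AT. The rule used no measured value, although members were chosen with earlier results of these data known. It found 44 of 22810 probe sets on the array, 13513 of which carried exactly 1 gene. These were 15 tetraspanins (TET), 10 vacuolar protein sorting genes (VPS), 9 prenylated Rab acceptors (PRA1), 8 autophagy genes (ATG3 and ATG8B to ATG8H), the Rab GTPase RAB6A and the syntaxin ATSYP24. No probe set with exactly 1 gene was named as a VAMP, EXO70, SNX or VTI gene. Probe sets annotated with several genes were not searched, so the families cannot be judged as whole groups. A filter on low signals left 32 members for testing, namely 8 ATG, 9 VPS, 8 PRA1 and 6 TET genes and RAB6A.

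The data were 18 Affymetrix ATH1 arrays. On 9 arrays the plants had received SA, read here as salicylic acid, at 0.30 mM together with 0.02% of the surfactant silwet, and on 9 arrays they had received 0.02% silwet without SA. Replicates 1 to 3 recur in 3 runs of consecutive serial numbers in either treatment, called serial sets 1, 2 and 3 here, with 3 arrays per treatment and set. The silwet runs carry serial numbers 73 to 81 and the SA runs 82 to 90, so no run holds both treatments. SA and silwet runs were matched by their order, which no label states, and every comparison within a set rests on this assumption. Each title also holds a second number of unstated meaning, which was not used. Its values fall into separate ranges for replicates 1, 2 and 3. In every set it is higher on the SA array than on the silwet array of equal replicate number. The labels give no tissue, plant age, harvest time or meaning of the sets, and nothing in them ties the arrays to separately grown plants, so p-values measure the spread among arrays, which may be technical.

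Tetraspanins are small proteins with membrane-spanning helices that gather partner proteins into membrane domains, and in plants some of them travel on extracellular vesicles. ESCRT complexes, which hold many VPS proteins, bud vesicles into the lumen of late endosomes and so form multivesicular bodies. In autophagy, ubiquitin-like ATG8 proteins are joined to a lipid of the growing autophagosome by an enzyme chain that includes the E2-like ATG3. PRA1 proteins act on prenylated Rab GTPases along the secretory pathway, and salicylic acid is the plant hormone best known for systemic defence against biotrophic pathogens.

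Values are MAS5 signals on a linear scale, and differences are SA minus silwet on the log2(signal + 16) scale with their standard error (SE), tested by limma with Benjamini-Hochberg adjustment over 13647 probe sets. The offset of 16 understates the change of weakly expressed genes. Median signal ran from 27.5 to 37.3 across the 18 arrays. The ubiquitin controls gave a 3′ over 5′ log2 signal ratio between 0.71 and 1.12 on the 3 SA arrays of set 1, against 1.15 to 1.81 on the other 15 arrays, while the actin and GAPDH ratios of those 3 arrays lay within the range of the others. The part of this shift in the set 1 results below was not tested. Of 8 listed leaf markers 4 were named, and their summed signal ran from 5221 to 7703 on the SA arrays and from 6307 to 9323 on the silwet arrays of set 1. None of the 4 passed limma's test or had an unadjusted p under 0.05 there. Of the root, seed and flower lists 1, 1 and 0 genes were named. In bulk RNA, a change in the number of cells of a type and a change in RNA per cell cannot be told apart.

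In set 1, 8 of the 32 tested members passed an adjusted p of 0.05, 6 of them higher with SA (TET8, VPS60.1, ATG8H, PRA1.G2, VPS2.1 and PRA1.A1) and 2 lower (TET3 and TET7). Over all tested probe sets 12.8% passed, 6.8% higher and 6.05% lower. The members' share was above the background in the upward direction and close to it in the downward direction, with no test of that difference. Members were chosen with earlier results of these data known, so this comparison cannot decide whether these families respond more than other genes. The members' median difference was 0.06, against -0.11 over all tested probe sets, and their differences ran from -0.74 to 1.35. In sets 2 and 3, and with the 9 SA arrays set against the 9 silwet arrays, limma called no member and no other probe set (background 0%). No member had an unadjusted p under 0.05 in these 3 comparisons, and 233, 187 and 218 of all tested probe sets did in set 2, set 3 and the pooled comparison. With arrays of equal number paired, these comparisons again gave no call. Then 2, 3 and 2 members had an unadjusted p under 0.05, near the shares of 9.62%, 7% and 5.53% over all tested probe sets. Without the block, the pooled fit had no term for serial set, so differences between sets stayed in its error. Its SE was 0.28 for TET8 and 0.32 for VPS60.1, against 0.22 and 0.20 in set 1. The lack of pooled calls therefore does not show that a mean SA effect was absent.

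**Figure D1:**
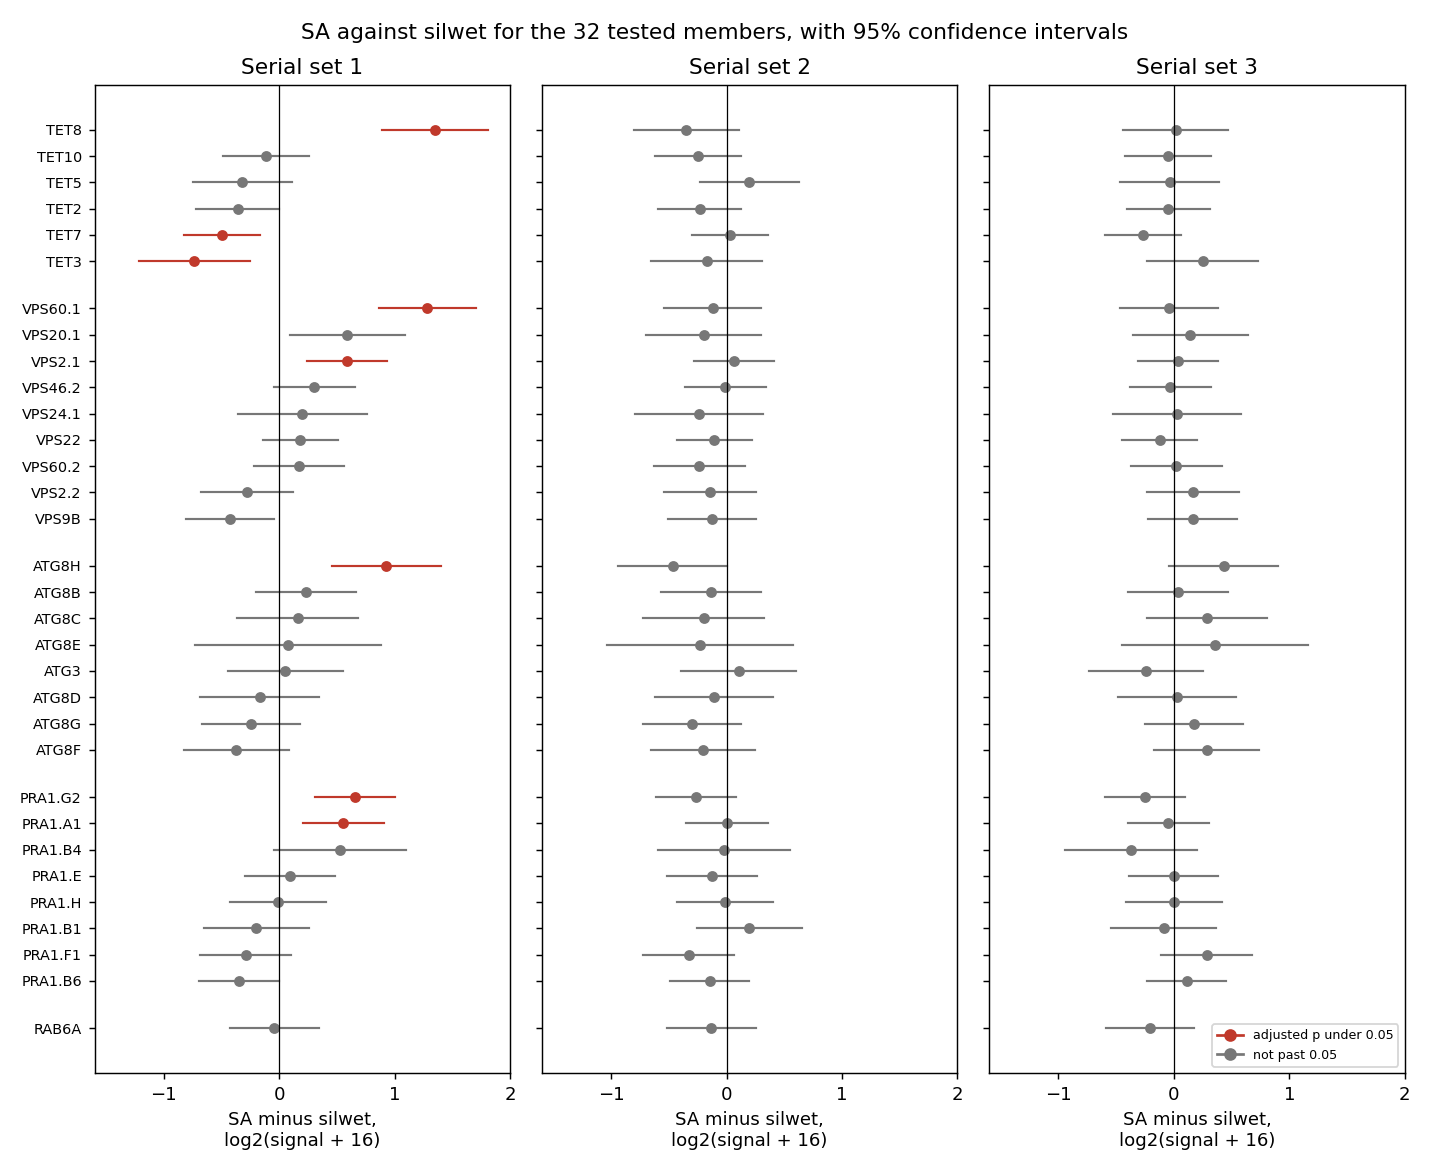
SA minus silwet for each of the 32 tested members in serial sets 1, 2 and 3 (x axis, log2(signal + 16); points with 95% confidence intervals, red where the adjusted p was under 0.05). TET8 and VPS60.1 lie farthest to the right in set 1, at 1.35 and 1.28, and no member is red in sets 2 and 3.

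Among the tetraspanins, TET8 (AT2G23810), the marker of plant extracellular vesicles, rose in set 1. Its signal was 2072, 1512 and 1739 on the SA arrays of set 1 (replicates 1, 2 and 3), against 678, 595 and 782 on the silwet arrays. Each SA array of set 1 stood above all 15 other arrays, the highest of which was a silwet array of set 2 at 868. The log2 difference was 1.35 ± 0.22 (SE; 95% confidence interval 0.89 to 1.81), a 2.55-fold change with a limma adjusted p of 7.84e-04. In set 2 TET8 read 545, 442 and 808 with SA against 838, 562 and 868 with silwet, and in set 3 it read 495, 519 and 562 with SA against 454, 601 and 511 with silwet. The treatments overlapped in both sets, with log2 differences of -0.35 and 0.02.

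TET9 (AT4G30430), the closest homologue of TET8, fell under the signal filter and is described here after its values were seen. It read 84.0, 27.7 and 23.1 on the SA arrays of set 1, against 5.61, 12.01 and 10.7 on the silwet arrays. The SA arrays of set 1 again lay above all others, since the 12 arrays of sets 2 and 3 ran from 1.31 to 6.70. A limma fit on all 22746 Arabidopsis probe sets gave a log2 difference of 1.13 ± 0.24 (SE) and an adjusted p of 0.00801 in set 1. The call was kept with each of the 18 arrays left out in turn, although the difference was 0.71 without SA replicate 1 of set 1, its highest array. The same fit called none of the other 11 untested members in set 1, whose signals ran from 0.182 to 23.5 over all arrays. The share of the 22746 probe sets called in that fit is not given here, so the TET9 call stands without a background.

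TET3 (AT3G45600), a tetraspanin found at plasmodesmata, fell in set 1. It read 247, 122 and 171 with SA against 430, 248 and 251 with silwet, so that the highest SA array came within 1 signal unit of the lowest silwet array. The log2 difference was -0.74 ± 0.23 (SE), 1.67-fold lower, with a limma adjusted p of 0.0418. In set 2 the SA arrays of TET3 (369, 388 and 346) lay below the silwet arrays (432, 407 and 408), and in set 3 the SA arrays (384, 525 and 362) lay above them (343, 346 and 358). Neither difference, -0.17 and 0.25, passed the test.

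TET7 (AT4G28050) also fell in set 1, with 110, 133 and 112 on the SA arrays against 190, 184 and 146 on the silwet arrays. The groups did not overlap, and the log2 difference was -0.49 ± 0.16 (SE; limma adjusted p = 0.0453). The TET3 call was lost without silwet replicate 1 (adjusted p = 0.182), SA replicate 2 (0.173) or SA replicate 3 (0.109) of set 1, and the TET7 call without silwet replicate 1 (0.130) or 2 (0.143), and without SA replicate 1 (0.127) or 3 (0.140), again of set 1. Leaving out arrays of the other sets ended these 2 calls as well, and the TET3 call ended in 10 and the TET7 call in 13 of 18 such fits. The remaining tested tetraspanins, TET2, TET5 and TET10, had differences between -0.36 and -0.12 and did not pass. Over the 6 tested tetraspanins the median was -0.34 and 1 difference, that of TET8, was above 0. Over all tested probe sets the median was -0.11, and 8568 of 13647 differences were below 0. TET9, under the signal filter and not among these 6, was higher with SA in set 1. With every probe set tested, the median of all 15 tetraspanins was 0.0075.

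**Figure D2:**
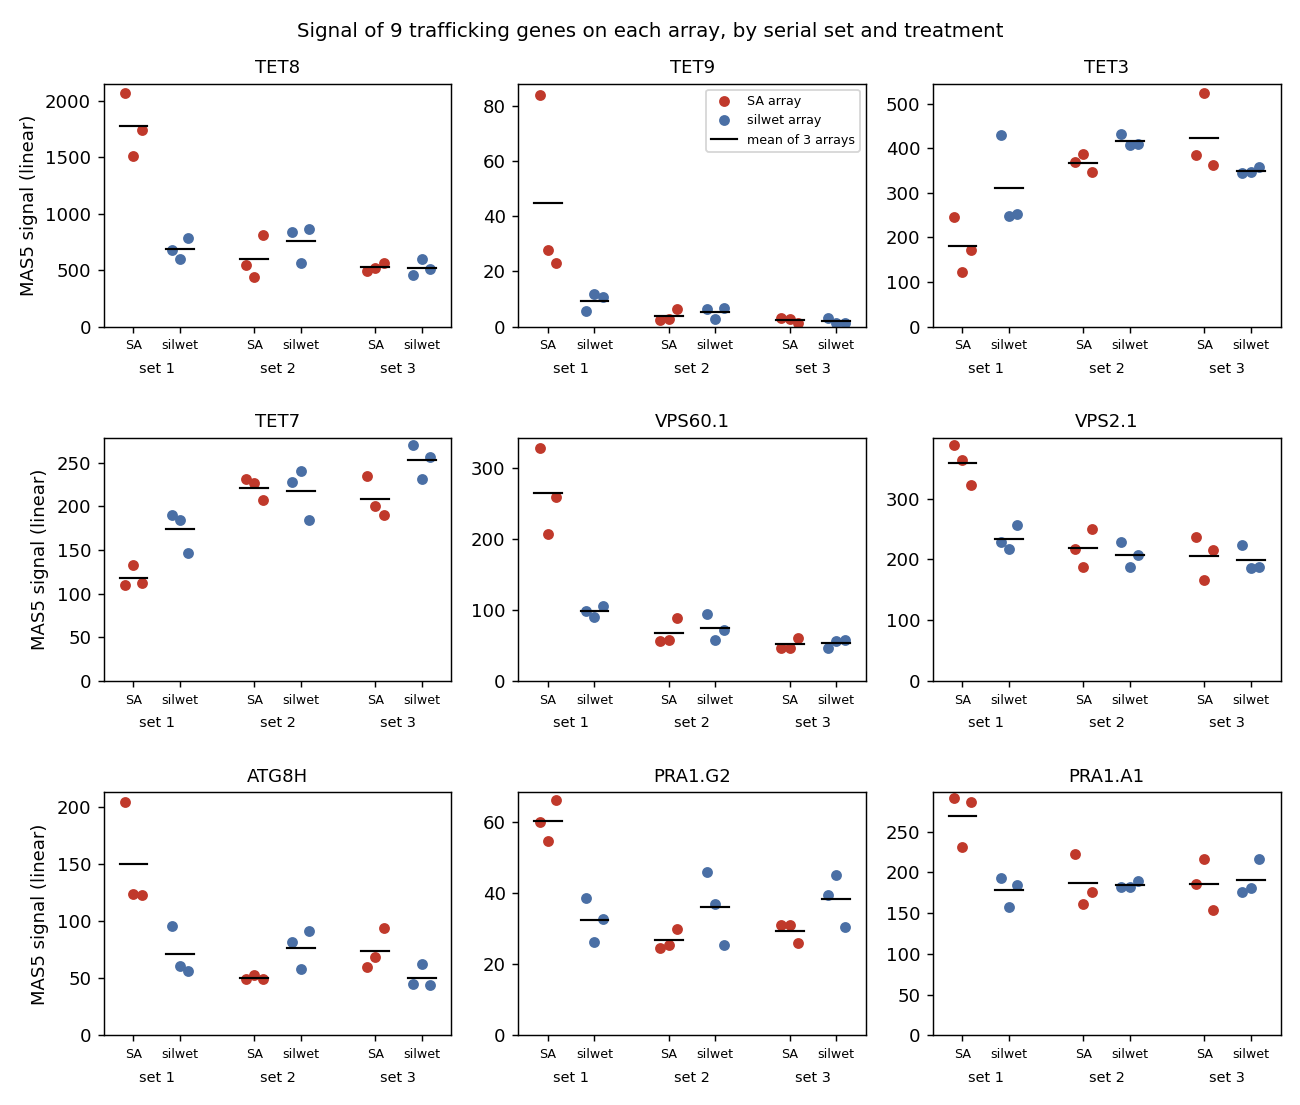
MAS5 signal (y axis, linear, from 0) of 9 trafficking genes on each of the 18 arrays, grouped by serial set with SA in red and silwet in blue, and black bars for the mean of 3 arrays. For TET8, TET9, VPS60.1, VPS2.1, ATG8H, PRA1.G2 and PRA1.A1 the 3 SA arrays of set 1 lie above all 15 other arrays, and for TET3 and TET7 they lie below them.

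Of the 9 tested VPS genes, 7 encode subunits or associates of ESCRT-III, the polymer that closes the neck of the budding vesicle. VPS60.1 (AT3G10640) rose in set 1 and read 328, 207 and 260 with SA against 98.4, 89.8 and 106 with silwet. All 3 SA arrays of set 1 exceeded every other array. The log2 difference was 1.28 ± 0.20 (SE; 95% confidence interval 0.86 to 1.70), a 2.43-fold change with a limma adjusted p of 6.30e-04. In set 2 the values were 56.0, 57.5 and 89.4 with SA against 94.2, 57.7 and 72.2 with silwet, and in set 3 they were 47.1, 46.7 and 60.8 against 46.6, 55.7 and 57.9. The log2 differences there were -0.12 and -0.04, with overlapping groups. VPS60.2 (AT5G04850), its paralogue, had 94.0, 59.99 and 73.8 with SA against 65.3, 62.9 and 65.8 with silwet in set 1, a difference of 0.17 that did not pass. Within an array the log2 ratio of VPS60.1 to VPS60.2 averaged 1.61 ± 0.05 with SA and 0.50 ± 0.08 with silwet in set 1 (SD, n = 3 each), a pair chosen after its values were seen and not tested.

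VPS2.1 (AT2G06530), an ESCRT-III core subunit, rose by less. It read 389, 364 and 322.7 on the SA arrays of set 1, against 228, 217 and 256 on the silwet arrays, with no overlap. The difference was 0.58 ± 0.16 (SE; limma adjusted p = 0.0270), and it was 0.06 and 0.04 in sets 2 and 3. The call was lost without silwet replicate 1 (adjusted p = 0.0657) or 2 (0.1001), and without SA replicate 1 (0.0916) or 2 (0.0637), all of set 1.

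VPS20.1 (AT5G63880), another ESCRT-III subunit that is named after its values were seen, had 297, 243 and 238 with SA against 161, 140 and 204 with silwet in set 1. The groups were apart, but the difference of 0.59 ± 0.24 (SE) did not pass (limma adjusted p = 0.116, unadjusted p = 0.024). Over the 7 tested ESCRT-III genes the median was 0.30, 6 differences were above 0 and 2 passed. VPS46.2, VPS24.1 and VPS60.2 had 0.30, 0.20 and 0.17, and VPS2.2 (AT5G44560) had -0.28. VPS22, of the ESCRT-II complex that recruits ESCRT-III, had 0.18, and VPS9B, a homologue of the exchange factor VPS9A that activates Rab5-type GTPases, had -0.43. Neither passed without a block, and VPS9B passed with the pairs as a block (limma adjusted p = 0.0370, against 0.139, background 27.9% with the block). The VPS median of 0.20 in set 1 compares with -0.13 in set 2 and 0.03 in set 3.

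ATG8H (AT3G06420) was the autophagy gene that rose in set 1. Its protein belongs to the ATG8 type whose C-terminal glycine is exposed without processing. It read 205, 124 and 123 with SA against 96.2, 60.7 and 56.5 with silwet, without overlap, and the SA arrays of set 1 were also above the 12 arrays of sets 2 and 3. The difference was 0.93 ± 0.22 (SE; 95% confidence interval 0.45 to 1.40), 1.90-fold, with a limma adjusted p of 0.0121. The call was lost without silwet replicate 2 (adjusted p = 0.0548) or SA replicate 1 (0.0634) of set 1. In set 2 the SA arrays (49.5, 52.9 and 49.2) lay below the silwet arrays (81.9, 57.9 and 91.1), and in set 3 the values were 59.97, 68.4 and 94.1 with SA against 44.7, 62.7 and 44.1 with silwet. These differences of -0.47 and 0.43 did not pass.

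The other 7 autophagy genes had set 1 differences between -0.37 and 0.23, and limma called none of them, nor did any have an unadjusted p under 0.05. ATG3 had 0.05. ATG8F (AT4G16520) read 664, 458 and 431 with SA against 909, 574 and 555 with silwet in set 1, a difference of -0.37 whose groups overlapped. SA was lower in every pair of equal replicate number, which held for 41.7% of all tested probe sets. A fit with the pairs as a block called ATG8F (limma adjusted p = 0.0494, against 0.290 without the block), where it called 27.9% of all tested probe sets. Across the 7 ATG8 genes the median difference was 0.08 in set 1 with 4 above 0, -0.20 in set 2 with 0 above 0, and 0.28 in set 3 with 7 above 0. Over all tested probe sets the medians were -0.11, 0.01 and -0.01 in sets 1, 2 and 3. No ATG8 gene passed in set 2 or 3, and none had an unadjusted p under 0.05 there without a block. Whether the SA effects of sets 2 and 3 differed from each other was not tested. On the silwet arrays alone, set 2 minus set 3 had an ATG8 median of 0.27 with 7 above 0. Limma called none of these 7 there, and ATG8H alone had an unadjusted p under 0.05 (0.0484). The median of all tested probe sets was -0.01 there. The part of this silwet difference in the change of sign between sets was not tested.

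**Figure D3:**
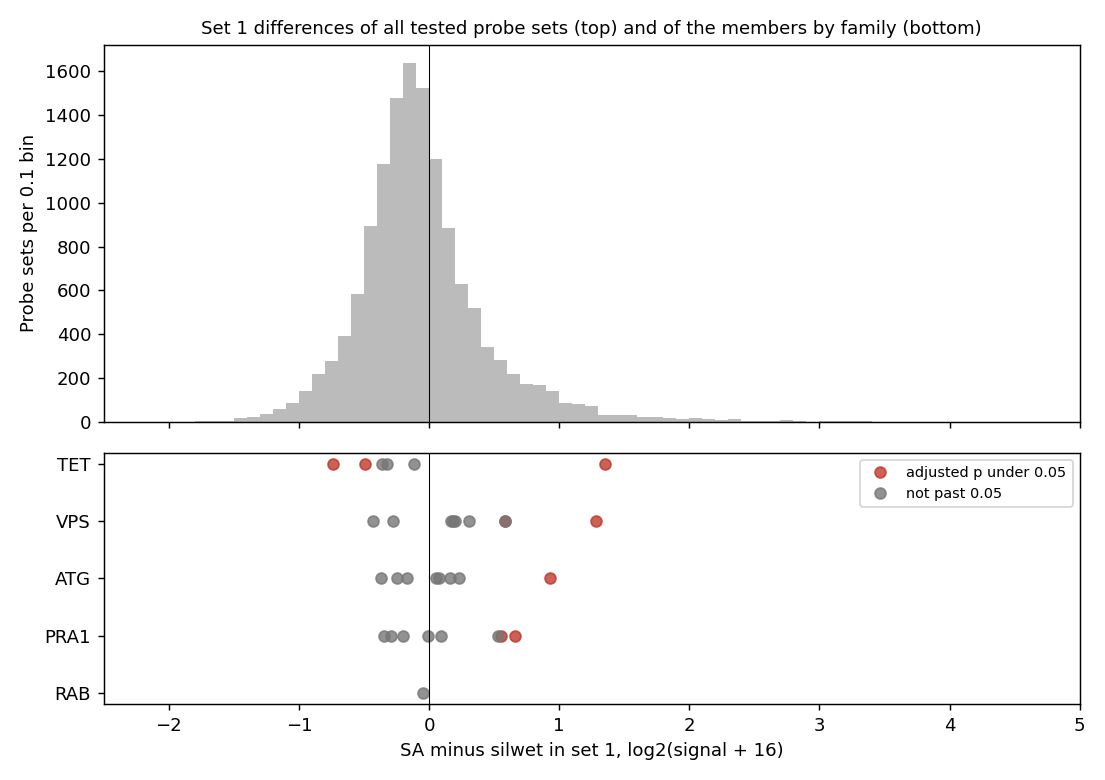
Upper panel, histogram of the set 1 difference over all 13647 tested probe sets (x axis, SA minus silwet, log2(signal + 16); y axis, probe sets per bin). Lower panel, the 32 tested members by family, red where the adjusted p was under 0.05. Of the 6 tetraspanins 5 lie below 0, and 7 of the 9 VPS genes lie above it. Of all tested probe sets 8568 lie below 0 and 5079 above it.

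Of the PRA1 genes, PRA1.G2 and PRA1.A1 rose in set 1. PRA1.G2 (AT5G56230) read 60.09, 54.7 and 66.4 with SA against 38.6, 26.2 and 32.9 with silwet. These SA arrays stood above every other array, and the difference was 0.66 ± 0.16 (SE; limma adjusted p = 0.0146). In set 2 it read 24.6, 25.6 and 29.99 with SA against 46.0, 36.9 and 25.4 with silwet, and in set 3 it read 31.2, 31.0 and 26.0 against 39.5, 45.1 and 30.4. The groups overlapped there, with differences of -0.27 and -0.25. The set 1 call was lost without silwet replicate 2 (adjusted p = 0.0748) or SA replicate 3 (0.0660) of set 1.

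PRA1.A1 (AT5G02040) read 291.4, 232 and 287 with SA against 193, 157 and 185 with silwet in set 1. The groups were apart, with a difference of 0.55 ± 0.17 (SE; limma adjusted p = 0.0370), against 0.00 and -0.05 in sets 2 and 3. The call was lost without silwet replicate 1 (adjusted p = 0.0511), 2 (0.144) or 3 (0.0596), and also without SA replicate 1 (0.113) or 3 (0.126), all of set 1. The other 6 tested PRA1 genes ran from -0.35 to 0.53 in set 1, and the family median was 0.04. PRA1.B4 (AT2G38360) read 198, 290.6 and 324 with SA against 104, 238 and 228 with silwet in set 1. Its groups overlapped, while SA was higher in each pair of equal replicate number, which held for 22.9% of all tested probe sets. The difference of 0.53 passed with the pairs as a block (limma adjusted p = 0.0204, background 27.9%) and not without it (0.230). PRA1.B6 (AT5G07110), with 32.3, 41.5 and 51.2 with SA against 53.8, 65.5 and 51.7 with silwet in set 1, had no overlap and a difference of -0.35 that did not pass.

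RAB6A (AT2G44610), a Rab GTPase of the Golgi, read 349, 264 and 346 with SA against 337, 295 and 353 with silwet in set 1. The groups overlapped, and the difference was -0.04 ± 0.18 (SE; 95% confidence interval -0.43 to 0.34; limma adjusted p = 0.908). It was -0.13 in set 2 and -0.21 in set 3. ATSYP24 fell under the signal filter, with values between 1.48 and 14.2 over the 18 arrays.

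Separation of arrays gave a like picture. In set 1 every SA array lay above every silwet array for 7 of the 32 tested members, the 6 that rose and VPS20.1, where 12.3% of all tested probe sets did so. Every SA array lay below every silwet array for 4 members (TET3, TET7, PRA1.B6 and VPS9B), where 17.9% of all did so, a share above that of the members. The 3 SA arrays of set 1 also stood above all 15 other arrays for the same 7 members (background 8.83%) and below all 15 for the same 4 (background 8.93%). In set 2 no member had SA wholly above (background 8.56%) and ATG8G, ATG8H, TET10 and TET3 had SA wholly below (background 5.42%). In set 3 TET3 alone was wholly above (background 2.36%) and PRA1.B4 alone wholly below (background 2.7%). Replicate spread was similar to that of the array as a whole, with a median within-group SD of 0.23 over the members and 0.27 over all tested probe sets on the log2 scale, and ATG8E was the most variable member at 0.53.

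The difference between sets in the SA effect was tested directly. A contrast of set 1 with the others singles out the set with the calls, and members were chosen with earlier results known. Its p-values are therefore not independent support for the set 1 calls. The SA effect in set 1 exceeded the mean of sets 2 and 3 for 4 of 32 members (background 7.94%, of which 4.9% in this direction). TET8 differed by 1.51 ± 0.27 (SE; limma adjusted p = 0.00275), VPS60.1 by 1.36 ± 0.24 (0.00325), PRA1.G2 by 0.92 ± 0.20 (0.0111) and ATG8H by 0.94 ± 0.27 (0.0428). An F test over the 3 sets called the same 4 (background 3.52%), with limma adjusted p of 0.0102 for TET8, 0.0129 for VPS60.1, 0.0384 for PRA1.G2 and 0.0445 for ATG8H. The ATG8H contrast was lost in 12 of the 18 fits that left out 1 array, with an adjusted p of up to 0.134 without SA replicate 1 of set 1, and those of TET8, VPS60.1 and PRA1.G2 were kept in all 18. In the F test PRA1.G2 and ATG8H were each lost in 13 of 18, and VPS60.1 without silwet replicate 2 of set 1 (0.0548). For the other 4 members called in set 1, VPS2.1, PRA1.A1, TET3 and TET7, a difference between sets did not pass without a block.

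Pairing SA and silwet arrays of equal number added to these calls. With the 9 pairs as a block limma called 11 members in set 1 (background 27.9%), namely the 8 above with PRA1.B4 higher and ATG8F and VPS9B lower. The contrast of set 1 with sets 2 and 3 then called 8 members (background 21.9%), adding PRA1.A1 (adjusted p = 0.0380), PRA1.B4 (0.0148), TET3 (0.00650) and VPS2.1 (0.0344). The F test called 6 (background 18.2%), adding PRA1.B4 (0.0285) and TET3 (0.0123). With the block the members' share was 34.4% in set 1, 25% in the contrast and 18.8% in the F test, each closer to its background than without the block.

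**Figure D4:**
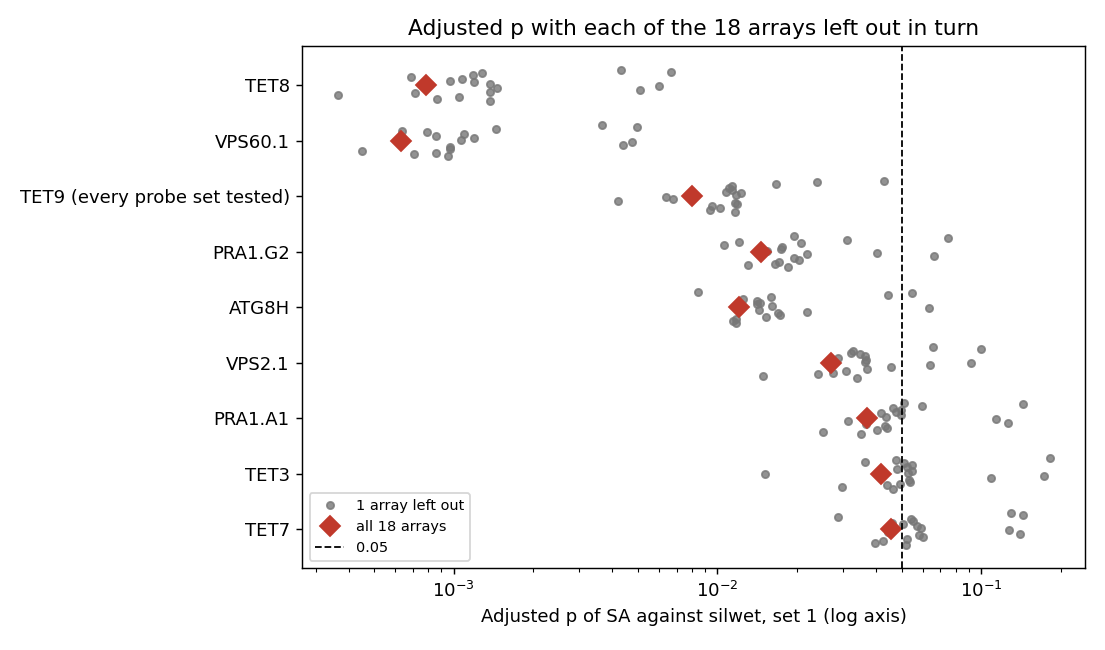
Adjusted p of SA against silwet in set 1 (x axis, log scale) for the 8 called members and TET9, with all 18 arrays (red diamonds) and with each array left out in turn (grey points), TET9 from the fit on every probe set; the dashed line marks 0.05. All grey points of TET8, VPS60.1 and TET9 lie left of the line, and TET3 and TET7 cross it most often.

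The silwet arrays showed how the members varied between sets without SA. Limma called no member between silwet sets 1 and 2 (background 0.572%), 1 and 3 (background 1.05%) or 2 and 3 (background 0%). At an unadjusted p under 0.05 there were 0, 6 and 2 members, where 8.05%, 9.86% and 1.88% of all tested probe sets had such a p. Of the 6, ATG8E (0.92), VPS20.1 (0.74), VPS60.1 (0.72) and VPS24.1 (0.59) were higher in silwet set 1 than in set 3. TET7 (-0.51) and PRA1.B6 (-0.41) were lower. Arrays of equal number in silwet sets 1 and 2 deviated together, and with the number as a block limma again called no member between these sets (background 1.09%, unadjusted p under 0.05 for 2 members). The same block gave 1 call between silwet sets 1 and 3, VPS60.1 (limma adjusted p = 0.0494, background 2.23%). Array weights took the number of members called from 0 to 5 between silwet sets 1 and 3 (8.88% of all tested probe sets) and from 0 to 1 between sets 1 and 2 (6.01%). All 7 tested ESCRT-III genes were above 0 in silwet set 1 minus set 3, with a median of 0.26, and all 8 tested PRA1 genes were below 0, with a median of -0.21, where the median of all tested probe sets was 0.00.

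Other trafficking genes outside the naming rule were listed by function in 8 lists of 135 genes. Probe sets with exactly 1 gene named 24 of them, and 21 were tested. In set 1 limma called none, 4 had an unadjusted p under 0.05 where 26.3% of all tested probe sets did, and the median was 0.04 with a range of -0.43 to 0.93. Those 4, which are named after their values were seen, were KEU, an SM protein that works with syntaxins (0.93, adjusted p = 0.112), AP2M, a subunit of the AP-2 clathrin adaptor (0.50, 0.101), SEC22, a SNARE between endoplasmic reticulum and Golgi (0.39, 0.102), and ARA6, a plant Rab5-type GTPase (0.35, 0.170). With the pairs as a block KEU (limma adjusted p = 0.0170), AP2M (0.0314) and SEC22 (0.0346) passed, all higher with SA, and 3 of 21 is a smaller share than the 27.9% of all tested probe sets called in that fit. None of the 6 tested exocyst genes or the 2 tested autophagy regulators RAPTOR1A and RAPTOR1B passed in either fit.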

How the data were processed

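Each deposited value is the MAS5 intensity of a probe set on a linear scale, per the submitters' processing notes, which give no version. The authors had scaled the arrays: trimmed by 2% on both sides, all 18 averaged 100.01. The genome build is not given in the sources used. Gene names came from the platform's probe table, were updated through RefSeq's TAIR10.1 table, which matched 44 of 44 members, and carry no coordinates.

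Signals were taken as log2(signal + 16). The upper 60% of Arabidopsis probe sets by mean were tested with limma 3.58.1 in R 4.3.3 (lmFit, eBayes with trend), two-sided, with Benjamini-Hochberg adjustment per contrast and a threshold of 0.05. One fit compared 9 SA arrays with 9 silwet arrays without a term for serial set. Another had the 6 cells of treatment by serial set, with 12 residual degrees of freedom. Neither had a block. The code was tested on simulated data. The number of arrays limits the precision.

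Equal replicate numbers of SA and silwet within a set deviated together in all 9 pairs (correlation of deviations from the group means 0.13 to 0.77). Equal numbers of silwet sets 1 and 2, which are not such pairs, also deviated together (0.34 to 0.52), while those of sets 1 and 3 did not always. The check therefore cannot tell pairs within a set from an effect of the replicate number shared between sets. The pairing comes from the replicate numbers in the titles and was assumed. The second number in the titles was not used in it.

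Members, gene lists and alternatives were chosen with earlier results of these data known. Named were every member past the threshold in SA against silwet or in a test between sets, and for a family with none the tested member of smallest p in set 1; others were chosen after their values were seen. Alternatives were other pseudocounts, normalizations, filters, array weights, no trend, blocks and left-out arrays. The fit of TET9 with arrays left out was added after seeing the data.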

Additional observations from a re-analysis of the deposited data

Results flagged for a closer look

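In 4 of 64 groups of 9 arrays (the SA or the silwet arrays of a tested member), 1 array stood apart by Dixon's criterion, where chance gives about 1 in 20. PRA1.B1 on SA replicate 1 of set 1 read 150.7 against 219.2 to 311.7 on the other SA arrays, a gap of 0.509 of the range. The others were silwet arrays of set 1. ATG8E on replicate 1 read 375.5 against 81.5 to 163.1 (0.563 of the range). On replicate 3 PRA1.F1 read 23.45 against 35.09 to 48.49 (0.526), and TET10 read 26.71 against 49.17 to 63.57 (0.679). None of these 4 genes was called in set 1.

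For 4 of 32 members limma called the response to SA unequal across the serial sets. Over all tested probe sets 7.94% passed the contrast of set 1 with the others, and 3.52% passed the F test. The contrast singles out the set with the calls, so its p-values are not independent support for them. Set 1 against the mean of sets 2 and 3 gave limma adjusted p of 0.00275 for TET8, 0.00325 for VPS60.1, 0.0111 for PRA1.G2 and 0.0428 for ATG8H. The F test over sets gave 0.0102, 0.0129, 0.0384 and 0.0445 for the same genes in that order.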

How the results depend on the processing

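Directions of all 8 calls in set 1 were kept in every alternative run. TET8 and VPS60.1 stayed past the threshold in all 18 fits with 1 array left out (adjusted p up to 0.00665 and 0.00497) and in the 12 other alternatives. With 1 array left out, the number of members called ran from 3 to 8 in set 1, from 3 to 4 for set 1 against sets 2 and 3, from 1 to 4 in the F test, and was 0 to 0 elsewhere; set 1 gave 4 without replicate 1 of silwet or of SA or without SA replicate 3, and 3 without silwet replicate 2, all of set 1, and the F test gave 1 without the last of these. It gave 2 without SA replicates 1 or 3 or silwet replicate 3 of set 1, SA replicates 1 or 2 or silwet replicate 1 of set 2, or SA replicate 3 or silwet replicates 1 or 2 of set 3. Without replicate 1, 2 or 3 in every group the counts were 3, 2 and 2 in set 1, 0, 1 and 2 for set 1 against sets 2 and 3, and 0, 0 and 0 in the F test, from smaller groups. Scaling to the 75th percentile gave 5 in set 1, 5 higher and 0 lower, losing PRA1.A1, TET3 and TET7. Testing every probe set gave 7, all higher and with TET9 among them, an F test count of 2 and a TET median of 0.0075, through the added weak genes. For the counts given so far in this paragraph, the share over all tested probe sets is not given. They therefore cannot tell a loss of calls among members from a loss over the whole array. TET7 was also lost with a pseudocount of 64 (adjusted p = 0.0557) and quantile normalization (0.0537), and the ATG8H contrast between sets with a pseudocount of 1 (0.0508), percentile scaling (0.0505) and every probe set tested (0.0655). Array weights called 1 member between silwet sets 1 and 2 and 5 between 1 and 3, with 6.01% and 8.88% of all tested probe sets. With the 9 pairs as block, 8 members were called for set 1 against sets 2 and 3, and the block of pairs changed no call beyond those given above. Equal numbers of silwet sets 1 and 2 deviated together (correlations 0.34 to 0.52), but not in every pair of sets 1 and 3 (-0.09 to 0.26) or 2 and 3 (0.06 to 0.28). With the replicate number as a block 1 member, VPS60.1, was called between silwet sets 1 and 3 (log2 difference 0.72, limma adjusted p = 0.0494, against 0.119), with 2.23% of all tested probe sets. The VPS median in set 1 was 0.23, 0.16, 0.27, 0.23 and 0.25 with a pseudocount of 1 or 64, quantile, percentile scaling and weights, and 0.29, 0.25 and 0.23 without replicate 1, 2 or 3. With 1 array left out the medians ran from -0.17 to 0.24 (ATG), -0.02 to 0.07 (PRA1), -0.47 to -0.15 (TET) and 0.14 to 0.34 (VPS). RAB6A, not called in any fit, ran from -0.11 to 0.08 with 1 array left out and turned to 0.0082 without silwet replicate 3 and 0.082 without SA replicate 2 of set 1, and to 0.011 without replicate 2 throughout. The cause of these changes was not tested beyond the size of the fits.

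The array weights came from an estimate that did not fully converge. Probe sets under the filter, 12 of 44 members, have weak signals, and the offset of 16 compresses their changes. The precision rests on 3 arrays per treatment and set.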
